A study of Mus musculus with 12 samples.

Results

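Induced stratified epithelial progenitors (iSEPs) are epithelial cells made from mouse stromal cells. They were made either in culture (in vitro iSEPs, 3 libraries) or inside the animal and then taken into primary culture (in vivo iSEPs, 3 libraries). These 6 of the 12 RNA-seq libraries of the study, chosen by their labels, are compared here. All cells came from Pdgfra-creER x LSL-tdTomato mice, in which a Cre driven by Pdgfra marks stromal cells with a red fluorescent protein. Pdgfra-positive adipose-derived stromal cells (ADSCs) form another group of the study. The sample titles do not state from which cells either kind of iSEP started. The source of the in vitro kind was fat from under the skin, and that of the in vivo kind an epithelium converted from mesenchyme. Tissue of origin thus differed along with the place of conversion, and these were not told apart. Both were grown in the same serum-free keratinocyte medium, as were the 3 back-skin keratinocyte libraries, whereas the 3 ADSC libraries were grown in DMEM with 10% serum. Per the labels, 3 mice each gave 1 library to every group, so a mouse number stands for the same animal, and values of 3 libraries are given below in the order of mouse 1, 2 and 3. Ages and passage numbers are not stated in the labels, and each in vivo library is a culture, not tissue measured directly.

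A stratified epithelium such as epidermis renews itself from basal cells that carry keratins 5 and 14 and rest on a basement membrane. Their daughters move up, build junctions and make the cornified envelope. Fibroblasts and other stromal cells instead secrete fibrillar collagens and keep a code of Hox transcription factors that records where in the body they arose. The study is known for turning stromal cells into stratified epithelium with transcription factors of the epithelial lineage together with Myc, and the comparison asks how cells converted in a dish differ from cells converted inside the animal and cultured afterwards.

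The Y-linked genes set 1 library apart from its label. Xist, the RNA that silences 1 X chromosome in females, was at 31.9 FPKM in the in vitro library of mouse 1 and 28.7 in its in vivo library, and at most 0.016 in the iSEP libraries of mice 2 and 3. FPKM is fragments per kilobase of transcript, scaled to depth. Ddx3y, a Y-linked RNA helicase, was at 0, 16.2 and 0.166 in in vitro iSEPs and at 0.023, 26.9 and 17.3 in in vivo iSEPs. The in vitro library labelled mouse 3 was therefore near 0 for this Y-linked gene, while the ADSCs, in vivo iSEPs and keratinocytes labelled mouse 3 had 23.4, 17.3 and 12.1. Kdm5d and Uty, also Y-linked, were at 0.030 and 0.046 in that library, against 4.63 and 4.78 in the in vivo library of mouse 3, and Xist was at 0.016. Eif2s3y, a Y-linked translation factor, was at 0.092 there, and in the in vivo library of mouse 2 it was at 1.17, where the in vitro library of the same mouse had 34.2. Why that library lacked these transcripts was not tested, and whether it came from the same animal as the other libraries labelled mouse 3 is not settled here. The pairing of mouse 3, on which the fits with the mouse as a block and the differences within mouse 3 rest, is therefore uncertain, and counts of changed genes are given below with and without that library.

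**Figure D1:**
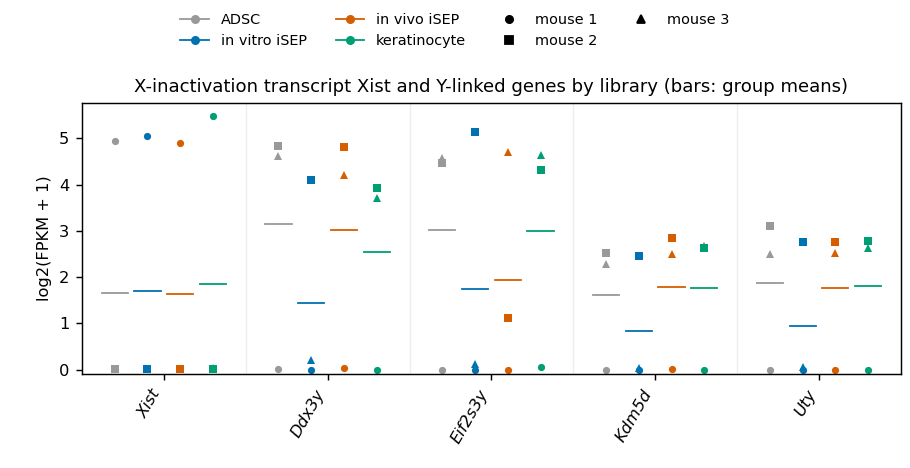
log2(FPKM + 1) of Xist and 4 Y-linked genes in the 12 libraries (colour: group, shape: mouse, bar: group mean). The in vitro iSEP library labelled mouse 3 (blue triangle) lies near 0 for Xist and for all 4 Y-linked genes, unlike the other libraries of mouse 3.

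Reads assigned to genes were estimated at 21010000 to 27610000 per iSEP library, with 10845 to 11178 genes detected at 1 FPKM or more. The libraries within a group differed widely. The 12364 genes tested were those that 3 or more of the 12 libraries held at 1 FPKM or more. Of these 1748 differed by at least 1 on log2(FPKM + 1) between the in vivo libraries of mice 1 and 3. Between an in vitro and an in vivo library the number ran from 800 to 1790. Among pairs of iSEP libraries the closest was the in vitro libraries of mice 2 and 3, with 447 such genes. In vivo iSEPs were the most variable of the groups, with a median SD of a gene of 0.253 on the log2 scale, against 0.197 for in vitro iSEPs, 0.162 for ADSCs and 0.117 for keratinocytes.

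**Figure D2:**
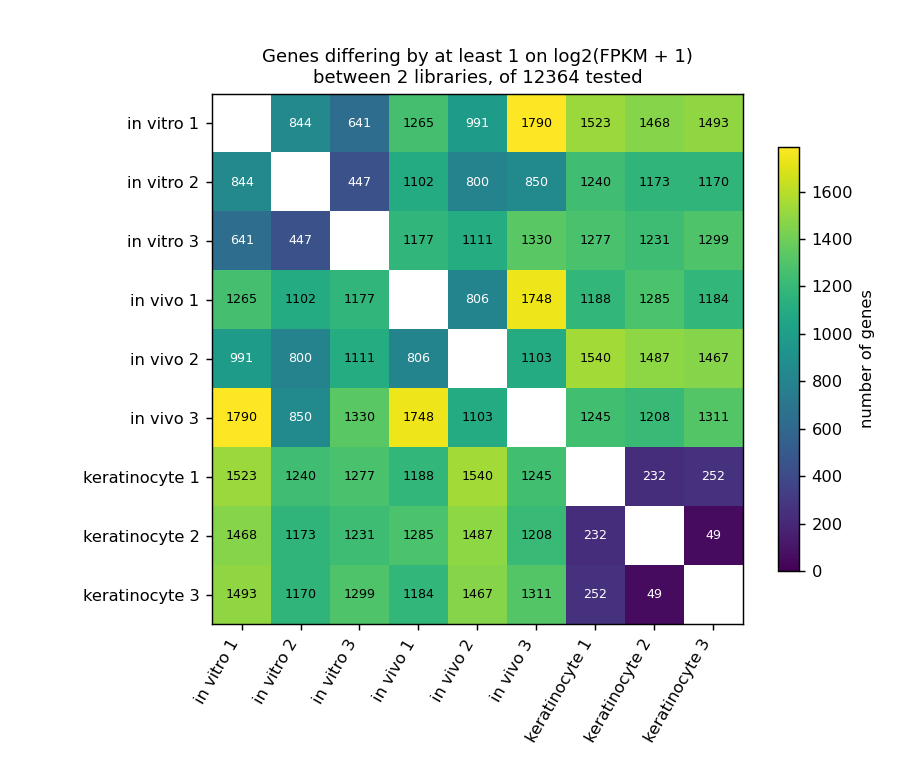
Number of genes, of 12364, that differed by at least 1 on log2(FPKM + 1) between each pair of iSEP and keratinocyte libraries (1 to 3: mouse). The in vivo libraries of mice 1 and 3 differed in 1748 genes, and only the in vivo library of mouse 3 against the in vitro library of mouse 1 differed in more (1790).

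Between in vivo and in vitro iSEPs, 201 of the 12364 genes (1.63%) changed at an adjusted p below 0.05. In in vivo iSEPs 84 genes (0.679%) were higher and 117 (0.946%) were lower. Central and posterior Hox genes of the A and C clusters, genes of collagens I, III and VI, and 3 of 36 junction genes tested were lower. Contractile genes and Sox2 were higher. Another collagen gene, Col8a1, was also higher (log2 difference 1.18 ± 0.13, limma adjusted p = 0.0025), and it held without any single iSEP library. The test was limma's moderated test over all genes, with 1 spread shared by the 4 groups of 3 libraries. In the 201 genes no in vivo library overlapped the in vitro libraries, as in 1853 of all genes tested (15.0%). A fit to the 6 iSEP libraries alone, without the tighter ADSC and keratinocyte groups, called 1 gene, Hoxc10 (adjusted p = 0.0192), with 1180 genes at an unadjusted p below 0.05 in place of 1845. With the mouse as a block 128 genes were called, of which 118 were among the 201. Without the in vitro library of mouse 3, the one short of Y-linked transcripts, 58 genes were called, 51 of them among the 201. Without the in vivo library of mouse 2 the count was 71. Called with all libraries and without any single one of the 6 were 39 genes, of which 15 were higher and 24 lower in in vivo iSEPs. Of the 201 genes 20 reached the filter of 1 FPKM in 3 libraries only through the iSEP group where they are high, so the filter favoured a difference in them. Sox2, Hoxd9, Optc, 1500009L16Rik, H2-Ab1 and Gjb6 are the ones described here.

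Hox genes gave the clearest difference. Of 39 Hox genes 26 were tested, and 5 fell and 2 rose in in vivo iSEPs. All 5 that fell lie in the central or posterior part of the A and C clusters. Hoxc10 (chr15:102966796-102971897 in mm10, plus strand), which acts in the lumbar trunk and hindlimb, was at 10.8, 7.32 and 11.5 FPKM in in vitro iSEPs and at 0.037, 0 and 0 in in vivo iSEPs. Every in vitro library was at 7.32 or more and no in vivo library was above 0.037. Its log2 difference was -3.40 ± 0.16 (SE, limma adjusted p = 5.2e-06). ADSCs had 39.8, 31.2 and 31.5, and Hoxc10 was listed at 0 in all 3 keratinocyte libraries. Hoxa9 (chr6:52223097-52227370, minus strand) was at 8.49, 8.39 and 2.77 in in vitro iSEPs and at 0, 0.011 and 0.062 in in vivo iSEPs, a log2 difference of -2.76 ± 0.29 (limma adjusted p = 0.0019). Its level in in vitro iSEPs of mice 1 and 2 was above that of ADSCs, which had 4.13, 3.47 and 3.06.

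Hoxa10 was at 4.35, 5.59 and 1.68 in in vitro iSEPs, against 0.033, 0 and 0 in in vivo iSEPs. Hoxc9 was at 4.87, 4.07 and 5.46 against 0.249, 0.540 and 1.04. Hoxa7 was at 4.24, 3.72 and 3.23 against 0.165, 0.797 and 1.29. The log2 differences of these 3 genes were -2.17, -1.87 and -1.48. In each of them the groups were apart. The keratinocyte means were 0.0207, 0.202 and 2.06, so for Hoxa7 the keratinocytes were above all 3 in vivo libraries. Hoxc11, which follows Hoxc10 in its cluster, was at 0.171, 1.69 and 1.41 in in vitro iSEPs and listed at 0 in all 3 in vivo libraries, and it was not called (limma adjusted p = 0.0955).

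Hoxb2 and Hoxd9 went the other way. Hoxb2 (chr11:96351632-96354014, plus strand), which patterns the hindbrain, rose from 0.623, 0.843 and 0.174 in in vitro iSEPs to 6.27, 4.43 and 3.40 in in vivo iSEPs. The log2 difference was 1.88 ± 0.22 (limma adjusted p = 0.0034), and the in vivo levels were near those of ADSCs (mean 6.75) and keratinocytes (mean 5.66). Hoxd9 rose from 0.242, 0.701 and 0.365 to 1.22, 2.74 and 1.78, a log2 difference of 1.00 ± 0.20. Its call was lost without the in vitro library of mouse 3 (adjusted p = 0.141), the in vivo library of mouse 2 (adjusted p = 0.0917), and likewise without the mouse 1 in vitro library (adjusted p = 0.0787). Hoxc4 and Hoxc5 were at 12.8, 14.4 and 5.20 and at 9.82, 6.85 and 3.96 in in vivo iSEPs, against 4.27, 2.72 and 5.6 and 2.60, 2.68 and 1.66 in in vitro iSEPs. Neither was called, although Hoxc5 passed with the mouse as a block (adjusted p = 0.0367). Over the 26 genes 12 differences were positive and 14 negative, with a median of -0.15 (all genes -0.03), which turned to 0.06 when libraries were weighted by their quality. The other 6 called Hox genes (Hoxc10, Hoxa9, Hoxa10, Hoxc9, Hoxa7 and Hoxb2) kept their calls under the block and without any 1 iSEP library. Hox genes overlap neighbours and antisense RNAs within their clusters, and the sources used here do not say whether the library kit marks strand, so reads of overlapping transcripts may be mixed.

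**Figure D3:**
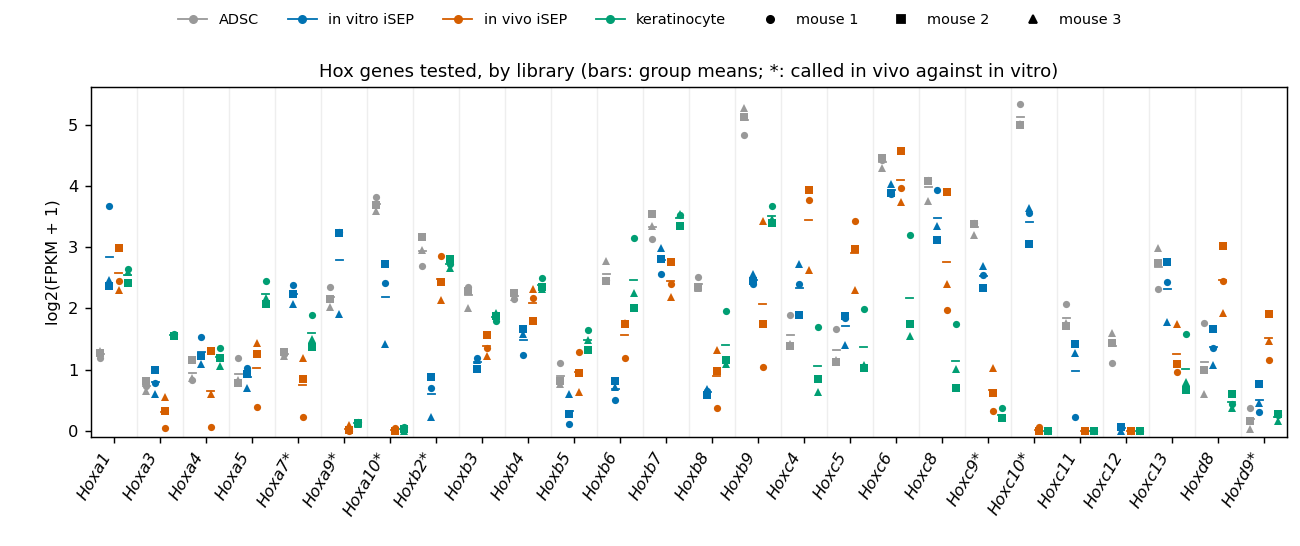
log2(FPKM + 1) of the 26 Hox genes tested, in the 12 libraries (colour: group, shape: mouse, bar: group mean, asterisk: called between in vivo and in vitro iSEPs). Hoxa9, Hoxa10 and Hoxc10 lie at 0.1 or less in the in vivo libraries and above 1 in all in vitro libraries.

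Other regulators of body position showed no call. Of 36 genes of limb and trunk position 21 were tested, 11 with a positive and 10 with a negative difference (median 0.05). Pitx1, which specifies the hindlimb, was at 52.3, 19 and 63.5 in in vitro iSEPs and at 55.5, 14.2 and 2.03 in in vivo iSEPs, so that the in vivo library of mouse 3 was the low one. Its log2 difference of -1.57 ± 0.90 did not pass (limma adjusted p = 0.457).

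Many genes of the stromal matrix were lower in in vivo iSEPs, although Col8a1 was higher. Of 36 mesenchymal and fibroblast genes 33 were tested, 8 fell and 1, Tagln, rose, with 25 of 33 differences negative and a median of -0.74. Col3a1 (chr1:45311538-45349706, plus strand), a fibrillar collagen, was at 13.7, 18.3 and 13.4 FPKM in in vitro iSEPs and at 0.504, 0.695 and 3.06 in in vivo iSEPs. The log2 difference was -2.88 ± 0.39 (limma adjusted p = 0.0088). ADSCs had a mean of 1498 and keratinocytes of 2.31, so both kinds of iSEP were far below ADSCs, and the in vitro libraries lay between the ADSCs and the others. Col1a2 was at 15.7, 45.8 and 33.1 against 0.641, 1.16 and 10.2, with 1944 in ADSCs. Postn, a matrix protein of healing and remodelling tissue, was at 9.59, 61.5 and 39.5 against 0.872, 1.54 and 6.07, with 3048 in ADSCs. The chains of collagen VI, a microfibril, moved alike: Col6a1 was at 17.9, 29.2 and 16.7 against 0.271, 0.998 and 6.58.

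In each of these genes the in vivo library of mouse 3 was the nearest to the in vitro group. The same library was the nearest in 70 of the 117 genes that fell. Col6a2, Col6a3, Col1a1 and Thy1, a surface marker of stromal cells, were the other genes of the list that fell, with log2 differences of -2.78, -2.77, -2.10 and -1.80. Pdgfra, whose driver marks stromal cells in these mice, was at 1.79, 4.74 and 3.18 in in vitro and at 0.158, 0.207 and 1.34 in in vivo iSEPs (limma adjusted p = 0.071). The 8 stromal fibroblast markers, Pdgfra, Pdgfrb, Col1a1, Col1a2, Col3a1, Dcn, Lum and Thy1, summed to 57.4, 126 and 94.8 FPKM in in vitro iSEPs and to 2.86, 4.94 and 34.8 in in vivo iSEPs. Those sums were 0.971%, 2.13% and 1.60% of the ADSC mean in in vitro iSEPs and 0.0485%, 0.0836% and 0.589% in in vivo iSEPs, while keratinocytes had 0.416% to 0.546%. In such bulk RNA, fewer cells of a type and less RNA per cell cannot be told apart. With the mouse as a block Col3a1, Col6a2, Col6a3 and Tagln held their calls of the 9, and the highest adjusted p was 0.065. Without the in vitro library of mouse 3 Col3a1 and Col6a2 held (highest adjusted p = 0.179), and without the in vivo library of mouse 2 Col3a1 alone held (highest adjusted p = 0.149). Leaving out the in vitro library of mouse 2 or the in vivo library of mouse 1 kept 5 of the 9 calls each (highest adjusted p = 0.0850 and 0.0802), and leaving out the in vitro library of mouse 1 or the in vivo library of mouse 3 kept all but Tagln (adjusted p = 0.0962 and 0.0604).

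Not all stromal transcripts followed. Vim, an intermediate filament of mesenchymal cells, was at 42.2, 147 and 115 in in vitro and at 26.5, 47.0 and 148 in in vivo iSEPs, and the groups overlapped. Fn1, which encodes fibronectin, was at 82.0, 127 and 73.2 in in vitro and at 39.7, 75.9 and 1039 in in vivo iSEPs, so that 1 in vivo library held the highest and another the lowest value. The summed FPKM of the whole list was 2485 to 2815 in in vitro iSEPs and 2213, 5185 and 6727 in in vivo iSEPs, and the list includes Acta2, Tagln and Fn1, which are abundant. Of 24 mesenchymal transcription factors 19 were tested and none was called, and Snai2, the member with the highest mean over the iSEP libraries, was at 63.1, 58.7 and 49.5 against 68.5, 62.0 and 32.8.

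Genes of the actin contractile apparatus were higher in in vivo iSEPs. A list of 31 smooth muscle and contractile genes was drawn up after the values were seen, so its count is a description. Of 29 tested, 10 rose and none fell, and 27 differences were positive, with a median of 1.16. Tagln (chr9:45929628-45936058, minus strand), the actin-bundling transgelin, was at 22.3, 50.3 and 20.8 FPKM in in vitro iSEPs and at 74.7, 478 and 848 in in vivo iSEPs. Its log2 difference of 3.40 ± 0.71 was the largest among the called genes whose higher group averaged 5 FPKM or more (limma adjusted p = 0.0435). ADSCs had 1178, 1917 and 2235 and keratinocytes a mean of 31.6, so the in vivo libraries of mice 2 and 3 stood far above the keratinocytes and below the ADSCs. Actg2, smooth muscle gamma actin, was at 7.05, 6.05 and 4.48 against 23.0, 57.3 and 112. Cnn1, the actin-binding calponin, was at 0.768, 1.94 and 0.591 against 4.11, 13.9 and 31.4.

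In these 3 genes the in vivo library of mouse 1 was the lowest of its group and that of mouse 3 the highest. Myl9 (chr2:156775464-156781657, plus strand), the regulatory light chain of non-muscle and smooth muscle myosin, was at 49.8, 52.8 and 31.4 in in vitro iSEPs. The in vivo libraries had 141, 298 and 376, a log2 difference of 2.5 ± 0.33 (limma adjusted p = 0.0078). Keratinocytes had 139, 165 and 179, so for Myl9 the in vitro libraries were the low ones. Nexn, which binds filamentous actin, rose from 5.86, 4.51 and 3.57 to 12.7, 24.4 and 24.9. Tpm2, Jph2, Fermt2, Itga1 and Ppp1r14a also rose, with log2 differences of 1.18, 2.02, 1.37, 1.35 and 2.31. Acta2, smooth muscle alpha actin, was at 435, 564 and 358 against 798, 2660.1 and 2943 (limma adjusted p = 0.0760).

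Markers of smooth muscle cells and pericytes were unequal. Myh11, the smooth muscle myosin heavy chain, was at 0.024, 0.235 and 0.129 in in vitro and at 0.071, 1.90 and 7.78 in in vivo iSEPs. Rgs5, Abcc9, Kcnj8 and Des were at no more than 0.153 in any iSEP library, and Myocd, the coactivator that drives the smooth muscle programme, was at no more than 0.007. Mcam, an adhesion molecule of pericytes and other cells, was at 67.4, 104 and 95.8 against 144, 139.8 and 257. The summed FPKM of the 9 pericyte and smooth muscle markers was 81.9, 120.1 and 112 in in vitro and 159, 169 and 310.1 in in vivo iSEPs, so all 3 in vivo sums were above the in vitro ones. The part of such cells in the contractile result was not tested. With the mouse as a block 8 of the 10 calls held, and those of Itga1 and Ppp1r14a did not (highest adjusted p = 0.067). Myl9 and Nexn held without the in vitro library of mouse 3 and without the in vivo library of mouse 2, and the other 8 held in neither (highest adjusted p = 0.173 and 0.141). Without the in vitro library of mouse 1, 4 held (highest adjusted p = 0.0962), without that of mouse 2 all but Ppp1r14a (adjusted p = 0.0619), and without the in vivo library of mouse 3 all but Tagln and Jph2 (highest adjusted p = 0.0651).

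**Figure D4:**
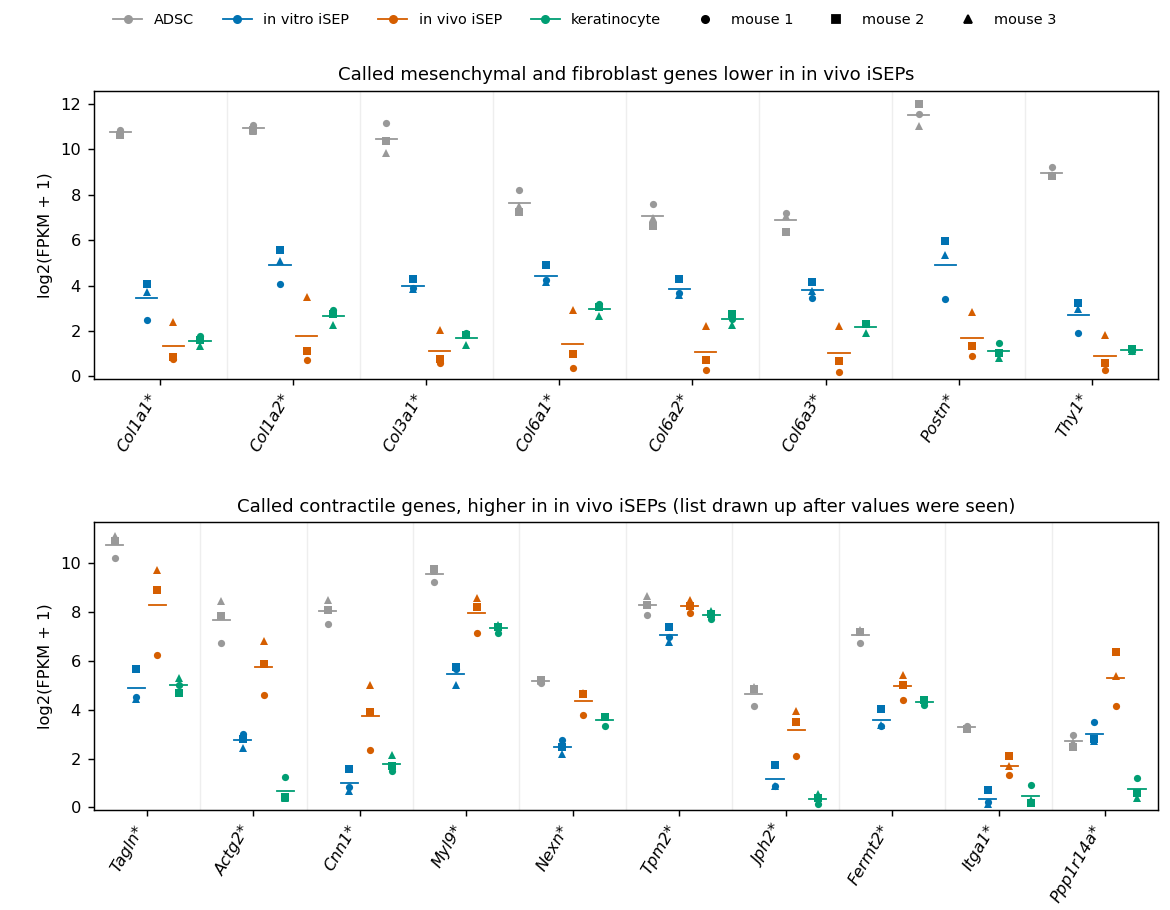
log2(FPKM + 1) in the 12 libraries of 8 called mesenchymal genes that were lower, and 10 called contractile genes that were higher, in in vivo iSEPs (colour: group, shape: mouse, bar: group mean). In the upper panel the in vivo library of mouse 3 is the nearest to the in vitro group, and in the lower panel no in vivo library overlaps the in vitro libraries.

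Contractile and immediate early genes are both classic targets of serum response factor, which binds the CArG box, a 10-base element with CC, then 6 bases of A or T, then GG, that reads alike on both strands. The 250 bases before each RefSeq start site (GRCm38.p6) were searched for it, and 7 of the 10 called contractile genes matched a promoter of that table. The remaining called ones, Tagln among them, were not matched by symbol and so were not searched. A box was found in 2 of the 7, Myl9 and Fermt2, and in 6 of 23 contractile genes tested (26.1%). Among all tested genes with a promoter, 133 of 9321 had a box (1.43%). Among all genes searched, 439 of 27025 did (1.62%). The other contractile genes with a box, Cnn2, Myl6, Srf and Vcl, were not called. The contractile list was drawn up after the values were seen and holds classic targets of the factor, and Srf itself. An excess of boxes in it was thus built in, and the part of this factor in the rise was not tested. Among 14 immediate early genes with a promoter, 2 had a box (14.3%), 1 of them Zfp36. These stretches are shown because the first pair rose and the last gene fell in in vivo iSEPs, and the box is in capitals. They lie at chr2:156775278-156775337 (plus strand), chr14:45530235-45530294 (minus strand) and chr7:28379252-28379311 (minus strand), and the box begins 161, 204 and 58 bases before the start site.
Myl9: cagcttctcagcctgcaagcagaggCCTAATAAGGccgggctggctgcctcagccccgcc
Fermt2: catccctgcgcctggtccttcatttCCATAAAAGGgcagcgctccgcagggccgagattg
Zfp36: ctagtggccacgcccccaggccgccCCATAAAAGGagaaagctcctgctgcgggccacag

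Immediate early genes moved the other way. Of 19 genes 18 were tested, 3 fell and none rose, with 16 of 18 differences negative and a median of -0.60. Fos (chr12:85473901-85477270, plus strand), a subunit of the AP-1 transcription factor, was at 38.6, 38.8 and 40.7 FPKM in in vitro iSEPs and at 10.2, 19.1 and 13.1 in in vivo iSEPs. The in vitro libraries agreed closely, and all in vivo libraries lay below them, around the keratinocyte mean of 15.5, with a log2 difference of -1.46 ± 0.23 (limma adjusted p = 0.0126). Zfp36, which destabilises AU-rich mRNAs, was at 47.0, 33.0 and 55.5 against 16.6, 14.0 and 20.0. Egr1, a zinc finger factor induced by growth signals, was at 64.6, 32.2 and 35.2 against 11.4, 17.7 and 14.0. The call of Egr1 was lost with the mouse as a block (adjusted p = 0.0736), and none of the 3 held without the in vitro library of mouse 3 (adjusted p = 0.0589 to 0.15). Without the in vivo library of mouse 2 Fos alone held (highest adjusted p = 0.114), and without the in vitro library of mouse 1 the same was true (highest adjusted p = 0.0752). Egr1 was lost without the in vivo library of mouse 1 or 3 as well (adjusted p = 0.0667 and 0.0532).

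The conversion factors did not separate the groups. Trp63, which encodes the p63 factor on which stratified epithelia depend, was at 105, 75.2 and 55.8 in in vitro and at 59.3, 156 and 80.7 in in vivo iSEPs, against a mean of 34.9 in keratinocytes. Grhl2 was at 16.6, 13.2 and 12.3 against 16.7, 12.5 and 10.6, and Tfap2a at 35.0, 13.0 and 18.7 against 16.8, 14.7 and 14.1. Myc was at 153, 72.5 and 98.8 against 57.9, 80.4 and 63.9. None of these 4 genes was called, 1 difference being positive and 3 negative, and the table does not separate transcripts of the cells' own copies from any transferred ones.

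Both groups carried the basal keratinocyte programme. All 17 basal genes were tested and none was called, with 12 positive and 5 negative differences. Krt5 was at 10691, 8842 and 11290.4 in in vitro and at 9804, 9252 and 3410.1 in in vivo iSEPs, and Krt14, its partner, at 10249, 8388 and 10813 against 9607, 6968 and 5621. The in vivo library of mouse 3 was the low one for both. Cdh1, the epithelial cadherin, was at 249, 136 and 170 against 82.6, 151 and 160, and Epcam, an epithelial surface protein, was at 17.8, 37.6 and 18.2 against 16.6, 6.87 and 116. The groups overlapped in both of these genes.

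Among the epithelial transcription factors, Sox2 rose and Ovol1 fell. Sox2 (chr3:34649995-34652460, plus strand), a regulator of stem cells, oesophagus and dermal papilla, was at 0.032, 0.014 and 0 FPKM in in vitro iSEPs and at 16.8, 10.0 and 1.63 in in vivo iSEPs. It was listed at 0 in all ADSC libraries and at no more than 0.014 in keratinocytes, so among these 12 libraries it was seen above 1 FPKM in in vivo iSEPs alone, and lowest there in mouse 3. Its log2 difference was 2.98 ± 0.51 (limma adjusted p = 0.0199), and without the in vitro library of mouse 3 or the in vivo library of mouse 2 the adjusted p was 0.0852 and 0.0754. Sox2 passed the filter on low values only through the in vivo libraries, where it is high, so its call is not independent of that choice. The other 6 Merkel cell markers, a skin cell type that carries Sox2, summed to 0.109, 0.0740 and 0.143 FPKM in in vivo iSEPs. Ovol1, a repressor that acts in differentiating keratinocytes, was at 35.0, 14.0 and 31.7 against 9.77, 9.87 and 7.99, where keratinocytes had a mean of 9.65. Ovol1 lost its call without the in vitro library of mouse 3 (adjusted p = 0.186) and with the mouse as a block (adjusted p = 0.0573). Without the in vivo library of mouse 2 neither Sox2 nor Ovol1 held (highest adjusted p = 0.115). Ovol1 was lost too without the in vitro library of mouse 1 (adjusted p = 0.108) or the in vivo library of mouse 1 or 3 (adjusted p = 0.0591 and 0.0766).

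Suprabasal and cornified envelope genes were mostly lower in in vivo iSEPs. Of 51 genes 44 were tested, 3 fell, none rose, and 41 differences were negative, with a median of -1.02. Over all 12364 genes tested, 0.946% fell and 6831 had a negative difference. Tgm1, the transglutaminase that cross-links the cornified envelope, was at 25.3, 5.95 and 18.2 in in vitro iSEPs and at 1.55, 0.954 and 4.77 in in vivo iSEPs, a log2 difference of -2.31. Sbsn, suprabasin, was at 817, 744 and 1202 against 405, 523 and 311, and Evpl, envoplakin of the envelope scaffold, at 30.3, 22.1 and 45.2 against 16.7, 10.7 and 15.8. The 3 calls were lost without the in vitro library of mouse 3 (adjusted p = 0.141 to 0.169), and Sbsn and Evpl also with the mouse as a block (adjusted p = 0.0708 and 0.0558). Without the in vivo library of mouse 2 Sbsn alone held, and without the in vitro library of mouse 1 none did (highest adjusted p = 0.149 and 0.0850). Without the in vivo library of mouse 1 Evpl alone held (highest adjusted p = 0.0639), and without that of mouse 3 Tgm1 and Evpl did (highest adjusted p = 0.0546).

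The summed list was at 5273, 1709 and 3818 FPKM in in vitro and at 1999, 1440 and 1937 in in vivo iSEPs, so the in vitro library of mouse 2 was within the in vivo range. Keratinocytes had 2282, 1946 and 1829, so the in vitro libraries of mice 1 and 3 were the high ones. Krt10, the first keratin of suprabasal cells, was at 92.3, 2.95 and 34.9 against 5.0, 21.9 and 3.09. Of 8 wound and stress genes Serpinb2 fell, from 590.0, 507 and 660.1 to 217, 303 and 203. Its call was lost without the in vitro library of mouse 3 (adjusted p = 0.121) or of mouse 1 (adjusted p = 0.0579).

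Some tight junction and gap junction genes were lower too. Of 39 epithelial junction genes 36 were tested, 3 fell, none rose and 29 differences were negative (median -0.34). Cldn1 (chr16:26356646-26371839, minus strand), the claudin without which the epidermal barrier fails, was at 219, 141 and 187 in in vitro iSEPs and at 21.5, 32.8 and 99.9 in in vivo iSEPs. Keratinocytes had a mean of 194, so the in vitro libraries were the ones at the level of keratinocytes. Ocln, occludin of the tight junction, was at 7.31, 8.38 and 13.6 against 1.87, 1.89 and 5.14, with a keratinocyte mean of 13.3. Gjb6, the gap junction protein connexin 30, was at 3.39, 2.80 and 2.09 against 0.373, 0.864 and 0.552, where keratinocytes had 0.330. Gjb6 held its call without any 1 library, whereas Cldn1 and Ocln did not hold without the in vitro library of mouse 3 (adjusted p = 0.143 and 0.132) or the in vivo library of mouse 2 (highest adjusted p = 0.123). Cldn1 was lost without the in vitro library of mouse 1 (adjusted p = 0.0845) and with the mouse as a block (adjusted p = 0.0509), and Ocln without the in vivo library of mouse 1 (adjusted p = 0.0517).

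Among the 12 largest rises were genes outside these groups. Tmem158 (chr9:123259057-123260789, minus strand), a membrane protein induced by Ras signalling, was at 4.01, 2.68 and 2.59 in in vitro iSEPs and at 33.8, 17.6 and 17.0 in in vivo iSEPs, a log2 difference of 2.48 ± 0.25 (limma adjusted p = 0.0016). Optc, the proteoglycan opticin, was at 0.290, 0.435 and 0.10 against 3.38, 5.94 and 7.2. For both genes each in vivo library was above every other library of the 12, the highest being keratinocytes at 5.11 for Tmem158 and ADSCs at 1.69 for Optc. 1500009L16Rik was at 0.329, 5.61 and 0.544 against 18.4, 22.2 and 33.1, with a mean of 0.770 in ADSCs and 0.00933 in keratinocytes. Ucp2, a carrier of the inner mitochondrial membrane, rose from 10.8, 10.8 and 11.5 to 36.7, 186 and 96.5, towards the keratinocyte mean of 147. Mgll, the lipase that cleaves monoacylglycerols, rose from 10.1, 6.60 and 2.20 to 25.7, 53.7 and 33.5, although keratinocytes had 0.418. Gpc3, an X-linked heparan sulphate proteoglycan, was at 2.93, 1.51 and 4.16 against 31.5, 22.4 and 8.56. Glipr1 was at 5.63, 26.7 and 10.4 against 46.5, 86.7 and 221. All 12 held with the mouse as a block, 6 held without the in vitro library of mouse 3 (highest adjusted p = 0.173) and 5 without the in vivo library of mouse 2 (highest adjusted p = 0.141). Without the in vitro library of mouse 1, 9 held (highest adjusted p = 0.105), and without the in vivo library of mouse 3, 10 (highest adjusted p = 0.0681).

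Beside collagens, Postn and Hox genes the 12 largest falls held Hp, Cp, Aqp1 and Kcnn4. Hp, the haemoglobin-binding plasma protein haptoglobin, was at 25.2, 22.8 and 18.3 in in vitro iSEPs and at 0.114, 1.16 and 4.56 in in vivo iSEPs. Cp, the ferroxidase ceruloplasmin, was at 12.8, 25.9 and 18.7 against 0.193, 0.658 and 7.49. ADSCs had means of 1.16 and 1.42 for these genes and keratinocytes 1.87 and 6.11, so the in vitro libraries were the high ones. Saa3, an acute phase serum amyloid and the called gene of 13 antimicrobial and acute phase genes tested, was at 7.13, 3.31 and 2.53 against 0.068, 0.189 and 0.478. Aqp1, a water channel, was at 8.70, 29.1 and 22.3 against 0.233, 0.888 and 6.31. Kcnn4 (chr7:24370263-24385212, plus strand), a calcium-activated potassium channel, was at 21.2, 30.0 and 30.2 against 2.41, 1.84 and 4.65, a log2 difference of -2.87 ± 0.28 (limma adjusted p = 0.0015). Saa3 and Kcnn4 held without any 1 library. Of the 12 largest falls 7 held with the mouse as a block (highest adjusted p = 0.073), 5 without the in vitro library of mouse 3 (highest adjusted p = 0.172) and 4 without the in vivo library of mouse 2 (highest adjusted p = 0.141). Without the in vitro library of mouse 1, 11 held, all but Cp (adjusted p = 0.0595), and 8 held without the in vitro library of mouse 2 or the in vivo library of mouse 1 (highest adjusted p = 0.0782 and 0.0689).

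Adipose and growth genes gave 3 more calls. Dlk1, a non-canonical Notch ligand that is imprinted and marks preadipocytes, was at 5.10, 18.2 and 13.3 in in vitro and at 0.058, 0.488 and 4.31 in in vivo iSEPs. Fabp4, the fatty acid carrier of adipocytes, was at 14.1, 20.0 and 11.7 against 1.07, 1.40 and 6.42, and ADSCs had 20.9. These were the called genes among 8 adipose genes tested, and again the in vivo library of mouse 3 was the nearest to the in vitro group. Ccnd1, cyclin D1, the called gene of 37 cell cycle genes tested, was at 66.9, 109 and 123 against 44.2, 31.5 and 27.7. None of these held without the in vitro library of mouse 3 (adjusted p = 0.0622 to 0.179) or the in vivo library of mouse 2 (highest adjusted p = 0.148). Dlk1 and Ccnd1 also lost their calls with the mouse as a block (adjusted p = 0.0658 and 0.0755), and without the in vitro library of mouse 2 (adjusted p = 0.0838 and 0.0779). Dlk1 was lost without the in vivo library of mouse 1 (adjusted p = 0.0768), and Ccnd1 without that of mouse 3 (adjusted p = 0.0762).

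The other 36 cell cycle genes gave no call, although 34 of the 37 differences were positive, with a median of 0.31. The summed list was at 629, 596 and 699.8 FPKM in in vitro iSEPs and at 1327, 626 and 283 in in vivo iSEPs, so the highest and the lowest libraries were both in vivo. Ndc80, a kinetochore protein, was at 4.36, 2.56 and 4.53 against 27.0, 4.65 and 1.21.

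Interferon response genes gave 1 call. Of 36 genes 28 were tested, 26 differences were negative and the median was -0.97. Since 0.946% of all 12364 genes tested fell, 1 call in a list of this size is not a result about the list. The same applies to Ccnd1 and Il18 in their lists. The summed list did not separate the groups, at 3987, 2574 and 1350 FPKM in in vitro and 1664, 2248 and 2818 in in vivo iSEPs, and the lowest library was an in vitro one. Ddx58, the RNA sensor RIG-I, fell from 22.1, 13.6 and 10.0 to 4.53, 5.56 and 7.35. Its call held without the in vitro library of mouse 3 (adjusted p = 0.0327), and was lost with the mouse as a block (adjusted p = 0.0658) and without the in vivo library of mouse 2 (adjusted p = 0.115), the in vitro library of mouse 1 or 2 (adjusted p = 0.0601 and 0.0514) or the in vivo library of mouse 1 (adjusted p = 0.0667). The in vitro library of mouse 1 stood out in the list: Isg15, a ubiquitin-like protein induced by interferon, was at 88.9 there, against 3.02 and 0.482 in the other in vitro libraries and 0.351 to 0.709 in the in vivo libraries. Ifi204 and Ifi211, of the interferon-inducible p200 family, were chosen after their values were seen. Ifi204 was at 21.6, 8.84 and 9.46 against 1.45, 0.578 and 2.46, and Ifi211 at 3.82, 2.19 and 2.11 against 0.301, 0.149 and 0.690. Both held without any 1 library, but the family's near-identical copies may share reads. Il18, an epidermal cytokine, was the called gene among 25 cytokines tested, at 189.9, 62.3 and 180 against 22.2, 45.2 and 27.1. Its call was lost with the mouse as a block (adjusted p = 0.0755), without the in vitro library of mouse 3 (adjusted p = 0.179), without the in vivo library of mouse 2 (adjusted p = 0.0654) without the in vitro library of mouse 1 (adjusted p = 0.105), and also where the in vivo library of mouse 1 or 3 was left out (adjusted p = 0.0782 and 0.0679).

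No call was made among 25 cholesterol synthesis genes (median -0.17), 26 genes of glycolysis and hypoxia (0.32), 25 genes of the TGF beta and YAP list (0.13), 11 Notch genes (-0.02) and 36 Wnt genes (0.08). The same held for 24 CDK inhibitors, p53 targets and senescence genes (-0.01), 22 stress response genes (0.37), 12 mitochondrial genes (0.05) and 22 ribosomal protein genes (-0.18). The TGF beta and YAP list mixed targets with ligands and antagonists. Its entry Ccn1 was matched through an alias to the cell cycle gene Ccna2, which entered the median. Cdkn2a, which encodes a brake on the cell cycle that accumulates in culture, was at 66.5, 146 and 97.3 in in vitro and at 53.8, 49.1 and 167 in in vivo iSEPs, with a mean of 19.2 in keratinocytes. Lrig1, a marker of hair follicle stem cells, was the called gene of its list, at 14.3, 19 and 11.7 against 26.3, 27.4 and 25.7. Its call was lost with the block (adjusted p = 0.0558) and without the in vitro library of mouse 3 (adjusted p = 0.0968), the in vivo library of mouse 2 (adjusted p = 0.0911), or that of in vitro mouse 1 (adjusted p = 0.0605).

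Markers of other cell types ranged from absent to abundant. Of 19 immune cell markers 9 were listed at 0 in all 6 iSEP libraries, and Ptprc, the common leukocyte antigen, was at 0.034 or less. Others were present, with 5 at 1 FPKM or more in an in vivo library. The 19 summed to 14.4, 19.8 and 19.9 FPKM in in vitro and 18.2, 27.9 and 21.5 in in vivo iSEPs. Keratinocytes had 11.6, 6.61 and 8.27. H2-Ab1, a chain of MHC class II, was called at low levels, 0, 0.085 and 0 against 1.59, 2.01 and 0.662, while H2-Aa, its partner chain, was listed at 0 throughout. Tek, an endothelial receptor, was called at 0.058, 0.15 and 0 against 0.785, 0.742 and 0.591, whereas the endothelial cadherin gene Cdh5 was at 0.071 or less. H2-Ab1 and Tek lost their calls without the in vitro library of mouse 3 (adjusted p = 0.0968 and 0.113), the in vivo library of mouse 2 (adjusted p = 0.0762 and 0.08) or the in vitro library of mouse 1 (adjusted p = 0.0542 and 0.0518). The 10 melanocyte markers summed to 2.16, 2.58 and 2.36 in in vitro and 3.78, 1.64 and 3.51 in in vivo iSEPs, and the 6 erythroid markers to 0.157 or less.

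Some marker lists held abundant members. The 10 neural and glial markers summed to 46.2, 65.0 and 58.9 in in vitro and to 146, 50.6 and 39.7 in in vivo iSEPs, of which Tubb3, a tubulin, made up 117 in the in vivo library of mouse 1, while Sox10, the factor that defines glia, was at 0.267 or less. The 10 skeletal muscle markers summed to 8.80, 18.6 and 3.32 against 7.69, 8.26 and 75.9, with Acta1, skeletal muscle actin, at 70.0 in the in vivo library of mouse 3 and the muscle regulator Myod1 listed at 0 in all 6. The 11 markers of glands and simple epithelium summed to 226, 395 and 486 against 55.5, 45.1 and 629, where keratinocytes had 614 to 666. Cldn4, a claudin, gave most of that sum, at 199.7, 265 and 341 against 45.6, 29.8 and 353, and the groups overlapped. The 10 endothelial markers summed to 1.72, 4.34 and 2.05 against 9.69, 1.88 and 1.83, and Pecam1, an adhesion molecule of endothelium, was at 8.72 in the in vivo library of mouse 1. What part these cell types had in the results was not tested.

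Single libraries carried many differences that the group means show. Of 509 genes whose means differed by at least 1 on log2(FPKM + 1), 88 (17.3%) fell under 0.5 of that size, or turned, when 1 library was left out. Such a library was the in vitro one of mouse 1 in 42 genes and the in vivo library of mouse 3 in 28. None of the 147 called genes among the 509 was of this kind. A call favours genes with little spread within the groups, so this count was nearly fixed by the calling. The calls themselves did depend on single libraries. Of the 201 calls 51 remained without the in vitro library of mouse 3, and 62 without the in vivo library of mouse 2. The in vitro library of mouse 1 also stood at least 2 above all 5 other iSEP libraries in 31 genes, and the in vivo library of mouse 3 in 27 genes, against 8 or fewer for the other 4. With a gap of at least 1 the order was another: the in vivo library of mouse 1 stood above in 220 genes, the in vivo library of mouse 3 in 143 and the in vitro library of mouse 1 in 128.

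**Figure D5:**
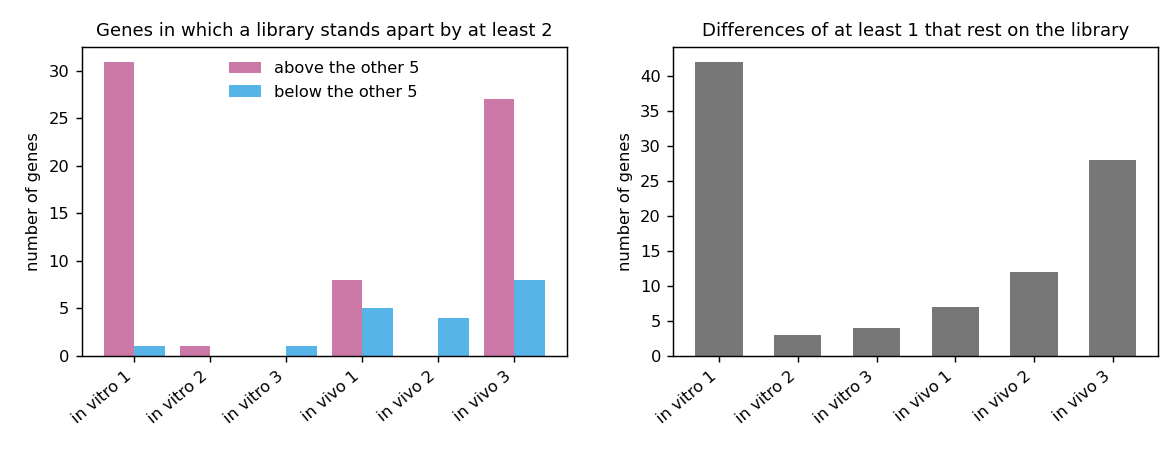
Left, number of genes in which 1 of the 6 iSEP libraries lay at least 2 on log2(FPKM + 1) above or below all 5 others; right, number of group differences of at least 1 that rest on that library (1 to 3: mouse). The in vitro library of mouse 1 (31 above) and the in vivo library of mouse 3 (27 above) are the highest on the left, with 42 and 28 differences on the right.

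In the in vitro library of mouse 1 the genes farthest above the rest were Isg15, Rtp4, Ccl20 and Stfa1. Rtp4, an interferon-induced chaperone, was at 26.2 against 0 to 0.468 in the other 5. Ccl20, a chemokine of inflamed epithelium, was at 32.6 against 0.045 to 1.11, and Stfa1, a stefin protease inhibitor, at 79.1 against 0.076 to 4.78. Txnip, which binds thioredoxin, was the gene farthest below, at 8.33 against 48.5 to 90.9. Krt15, a keratin of basal and follicle stem cells, was at 66.8 there and at 8.56 or less in the other 5.

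Krt8 led the genes that stood above in the in vivo library of mouse 3. Krt8, a keratin of single-layered epithelia, was at 103 FPKM against 0.159 to 7.17 in the other 5, and Krt18, its partner, at 95.5 against 2.66 to 24.4. Keratinocytes had means of 27.8 and 31.6, so only in this library did the in vivo cells exceed them. Aldh1a3, which makes retinoic acid, was at 34.3 against 0.244 to 2.72, 2010109I03Rik was at 44.4 against 1.16 to 5.26, and fibronectin was named above. Krtdap, a protein of differentiating keratinocytes, was at 8.82 against 116 to 1403, and Stfa3 at 0.617 against 15.4 to 271. In none of Krt8, Krt18, Fn1 and Krtdap did the group difference pass (limma adjusted p = 0.845, 0.998, 0.792 and 0.548).

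For the other 4 libraries some of the genes farthest from the rest are given, and not all of them reached a gap of 2. The in vivo library of mouse 1 stood above in Man1c1 (7.02 against 0.133 to 0.414), Pola1 (21.1 against 1.02 to 3.49) and Pecam1 (8.72 against 0.306 to 1.00), and below in Aldh1a1 (0.583 against 7.77 to 255) and Hpgd (1.92 against 15.1 to 180). In the in vivo library of mouse 2 Apoe, the lipid carrier apolipoprotein E, was at 309 against 8.25 to 98.8, Gstm1, a glutathione transferase, at 85.4 against 11.5 to 27.4, and Crabp2, which carries retinoic acid, at 5.69 against 26.1 to 63.7. The in vitro library of mouse 2 stood above in Rhox5, an X-linked homeobox gene, at 131 against 0.333 to 3.46. The in vitro library of mouse 3 stood below in Vnn1 (3.68 against 21.6 to 64.6) and Tnfrsf26 (2.07 against 8.52 to 47.4).

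Within a mouse the difference between its in vivo and in vitro cells reached at least 1 on the log2 scale in 601 genes upward and 664 downward for mouse 1, in 241 and 559 for mouse 2, and in 724 and 606 for mouse 3. Only 35 genes did so upward and 69 downward in all 3 mice, and 31 and 47 of them were called. Mouse 3 had the most changed genes upward and holds both the in vitro library short of Y-linked transcripts and the in vivo library high in Krt8 and Krt18.

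Set beside the keratinocytes, the genes that fell and those that rose differed. Among the 117 genes that fell, the keratinocyte mean was nearer to the in vivo mean in 81 (69.2%), against 52.0% of the 6831 genes tested with a lower mean in in vivo iSEPs. Among the 84 that rose it was nearer in 43 (51.2%), against 62.7% of 5522 genes. In 23 of the 84 and 25 of the 117 the keratinocyte mean was under 1 FPKM. These shares are descriptions, and no test was made of them.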

How the data were processed

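RNA-seq libraries (TruSeq RNA) of the 4 groups, 3 mice each, were processed by the authors. Per the submitters' processing notes the tools were FastQC 0.11.5, STAR 2.5.1b and HOMER, with build mm10. The deposited values are FPKM per gene over RefSeq exons, counted with HOMER per the file headers, with no replicates pooled; 3 further columns of the table match no sample here and were not used. The low FPKM values are multiples of a fixed step per gene, which gave the depths quoted.

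From these FPKM values log2(FPKM + 1) was computed for 12364 of 24537 genes, those that 3 or more of the 12 libraries held at 1 FPKM or more. Groups were compared with limma 3.58.1 in R 4.3.3 (4 group means, trended variances, Benjamini-Hochberg adjustment over all genes tested, threshold 0.05). A fold or difference on this scale understates the change of low genes. The alternatives were the mouse as a block, the 6 iSEP libraries alone, a pseudocount of 0.1, filters at 5 FPKM or at any value above 0, median and quantile scaling, library weights, and each library or mouse left out.

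The pairing comes from the labels, which give the same mouse number to libraries of the same animal. For mouse 3 it is uncertain, since its in vitro library lacks Y-linked transcripts. In vitro and in vivo libraries of mice 1, 2 and 3 had correlations of 0.17, -0.09 and 0.03 between their deviations from the group means. In vitro and in vivo libraries of different mice ran from -0.29 to 0.31, so the same-mouse pairs lay within that range. The p-values rest on the spread between libraries within a group, pooled over all 4 groups. ADSCs and keratinocytes varied less (median SD 0.162 and 0.117) than in vitro and in vivo iSEPs (0.197 and 0.253). The pooled spread is therefore not that of the iSEPs alone. Each library is also a separate culture, so spread between animals and spread between cultures are not separated.

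The genes named were the 12 largest rises and 12 largest falls among called genes, limited to those with no overlap between the groups and 5 FPKM or more as the mean of the higher one. Added to these were up to 4 called members of each gene list (or, with none called, its most abundant), the 4 genes farthest above and 2 farthest below for each library, every Hox gene, and a fixed set of markers. Other genes, and the contractile list, were chosen after their values were seen. The members and lists were chosen with earlier results of these data known. The strand setting of the library kit is not stated in the sources used here. Promoters were taken from RefSeq (GRCm38.p6), matched by symbol for 9321 of the 12364 genes. The results for 1 gene of the lists are not reported here.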

Additional observations from a re-analysis of the deposited data

How the results depend on the processing

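The number of genes called, 201, was 312 with library weights, 128 with the mouse as a block, 1 with the 6 iSEP libraries alone, and 0 with those 6 and the mouse as a block, an alternative added after seeing the data (limma, 1077 genes at an unadjusted p below 0.05). Leaving out 1 iSEP library gave 58 to 360 genes, and leaving out 1 mouse from all groups 2 to 166, the 2 being 1500009L16Rik and Hoxc10 without mouse 2. The other alternatives gave 138 to 243. Differences resting on 1 library numbered 88 at a least difference of 1 and 9 at 2. Instances of a library standing apart in a gene, summed over the 6 libraries, numbered 86 at a gap of 2 and 753 at a gap of 1. A gene with 1 library above and another below the rest was counted for each. Of 59 called genes of the naming rule, 39 were called with the block, and over 1053 comparisons with an alternative 591 stayed called, 462 did not and 0 changed direction. Of 109 uncalled ones, 45 turned sign under an alternative. The medians of 6 of 44 lists turned too, but medians were not recomputed with a library or a mouse left out. Some marker lists had no gene left with the filter at 5 FPKM. The effect of read depth on the calls was not tested. Each group holds 3 libraries, and an exact permutation test of 3 against 3 cannot go below 0.1.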
